A study of Mus musculus with 3 samples.

Results

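The regions described here are stretches of chromatin of 10 to 50 kb that carried the Polycomb mark H3K27me3 and no H3K4me3. Chromatin immunoprecipitation with sequencing (ChIP-seq) had been run on neurospheres, which are floating cultures grown from neural stem cells of the adult subventricular zone. The cells came from wild-type male C57BL/6 mice, no treatment is named in the labels, and no age is given there. There was 1 library per mark: 1 precipitated with an antibody to H3K27me3 (trimethylation of histone H3 at lysine 27) and 1 with an antibody to H3K4me3 (trimethylation at lysine 4). How many animals or cultures went into each library is not stated, and the input library without antibody was not analysed here. The domains were chosen by region positions in both lists, as follows. Neighbouring H3K27me3 regions of the authors' list were joined over gaps of up to 3000 bp. Of the 53714 domains this gave, 52317 lay on the 19 autosomes. A domain was kept if it spanned at least 10000 and under 50000 bp and shared 0 bp with every H3K4me3 region. This left 2430 domains, 60.6% (95% Wilson interval 59.1 to 62.1%) of the 4009 autosomal domains of that length. The other 1579 held H3K4me3. Their number, their length and the absence of H3K4me3 inside are therefore a description. With 1 library per mark no value has a replicate error and no test between conditions was possible; intervals of shares cover counting error only and take domains as independent, which neighbours are not. Spread over the 19 autosomes is given where domains are compared.

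H3K27me3 is deposited by Polycomb repressive complex 2, in which EZH2 or EZH1 is the methyltransferase and EED binds the finished mark. Binding of the mark by EED stimulates the enzyme, which allows the mark to extend along neighbouring nucleosomes into broad domains over silent genes. H3K4me3 is deposited by SET1 and MLL complexes at CpG-rich promoters that are active or held poised. In stem cells many promoters of developmental regulators carry both marks and are called bivalent. A broad H3K27me3 domain with no H3K4me3 region is therefore one in which the promoter mark was not called anywhere in the span. It can be a silent gene body, a silenced promoter or intergenic chromatin, and these were not told apart here because no gene positions on the build of the files (mm9) were used.

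The 2430 domains made up 4.64% of all autosomal H3K27me3 domains, yet held 20241 of the 115609 autosomal H3K27me3 regions (17.5%) and 19.7% of the base pairs inside such regions. Their summed span was 45.6 Mb, or 1.85% of the autosomes measured to the last region. Their median length was 15.7 kb (interquartile range 12.1 to 22.6 kb). Most were short for the class: 1128 (46.4%) spanned 10 to 15 kb, 521 (21.4%) spanned 15 to 20 kb, 471 (19.4%) spanned 20 to 30 kb, 211 (8.68%) spanned 30 to 40 kb and 99 (4.07%) spanned 40 to 50 kb. The share of domains without H3K4me3 fell along the same classes, from 68.6% to 62.5%, 53.7%, 49.8% and 43.0%. A longer domain has more room for an H3K4me3 region, so this order is tied to the rule.

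Inside, the domains were chains of many modest called regions and rarely a single block. The caller's threshold and the depth are unknown, and their part in how the mark was cut into regions was not tested. A domain held a median of 7 regions (interquartile range 6 to 10, from 2 to 25). The regions covered 62.1% of its span in the median (interquartile range 52.8 to 72.0%, from 25.4 to 99.99%). Their median width was 1049 bp (interquartile range 788 to 1646 bp). This was above the median of 749 bp (interquartile range 628 to 930 bp) of the 34839 autosomal H3K27me3 regions that stood alone in a domain of their own. The gaps between regions had a median of 669 bp, and 62.6% of the 17811 gaps were up to 1000 bp. The joining distance still mattered for many domains, since the longest gap was over 2000 bp in 63.8% of them and over 2500 bp in 37.4%.

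Narrow regions made up much of the number but less of the covered sequence. Regions under 1 kb were 46.6% of the number and 24.7% of the base pairs. Those of 1 to 2 kb were 35.8% and 34.3%, and those of 2 to 5 kb were 15.6% and 31.0%. Only 410 regions (2.03%) reached 5 kb, and they carried 10.1% of the base pairs. At least 1 such region was found in 350 domains (14.4%). A single region took up 50% or more of the span in 41 domains (1.69%).

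The score that the authors' peak caller wrote for each region has no stated scale. Apart from 1 alternative with top-score H3K4me3 only, it is used only within the H3K27me3 list. Values pile up at 3100, and 3100 or above is called the top score here. The median score of regions in these domains was 158 (interquartile range 87.2 to 342), against 81.3 (61.3 to 123) for autosomal regions that stood alone. The rule favours wide regions and score went with width, so this contrast is tied to the rule as well. Scores under 100 were found for 31.1% of the regions, and 324 regions (1.601%) were at the top score. The best region of a domain had a median score of 699 (interquartile range 399 to 1435). It reached the top in 254 of the 2430 domains (10.5%, 95% Wilson interval 9.30 to 11.7%). Score and width went together: the median score was 85.3 for regions under 1 kb, 224 at 1 to 2 kb, 673 at 2 to 5 kb and 3100 from 5 kb on. Longer domains had higher best scores, from a median of 474 at 10 to 15 kb to 2238 at 40 to 50 kb. A longer domain also has more regions among which the best is taken.

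Single domains show the range of build. The longest was chr11:58819442-58869417 (49.976 kb), with 21 regions over 79.3% of the span and a best score of 871. The next were chr5:33536005-33585940 (49.9 kb, 77.6% covered), chr17:32025113-32074637 (49.5 kb, 67.9%), chr11:52229503-52279000 (49.5 kb, 80.9%) and chr7:148963479-149012868 (49.4 kb, 67.6%). Each was a series of 18 to 21 regions whose widest member took 8.28 to 14.0% of the span, so length alone did not go with a single wide block.

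At the dense end, chr5:120243464-120259467 was 16.0 kb long and consisted of 2 regions that covered 99.99% of it, with the top score. The domain at chr6:89182307-89213057 spanned 30.8 kb with 3 regions over 99.9%, 1 of them 19.9 kb wide. Then came chr2:178515348-178526059 (10.7 kb, 99.4% covered), chr10:61589433-61601136 (11.7 kb, 99.3%) and chr5:113985912-113996501 (10.6 kb, 99.1%). These last 3 had 2 regions each and lay 3.18 to 3.76 kb from another domain of 10 kb or more, just beyond the joining distance. At the sparse end, chr17:28786058-28796565 had 4 regions over 25.4% of 10.5 kb, and its best score was 109. The others of lowest coverage were chr2:92587517-92599938 (28.7%), chr2:147157315-147168689 (29.4%), chr2:49215553-49226012 (29.5%) and chr8:128475108-128488234 (30.7%), with best scores of 112 to 321. Sparse domains of this kind were short rows of 4 or 5 low-scoring regions.

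Among the 2430 domains, the widest single H3K27me3 region measured 23.5 kb, in chr12:113548503-113591785. It was followed by regions of 21.2 kb in chr5:120612395-120650167, 19.9 kb in the chromosome 6 domain above, 19.8 kb in chr4:154483863-154527254 and 19.3 kb in chr2:25880797-25916107. All 5 reached the top score. They took 45.7 to 64.6% of their domains, which is unlike the median domain, where the widest region took 15.6%.

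The length limits cut through a continuous range. The 5 domains without H3K4me3 just under the lower limit spanned 9977 to 9999 bp with 37.3 to 88.2% covered, and the 5 just above it spanned 10001 to 10011 bp with 33.3 to 76.4% covered. Just above the upper limit were 5 domains of 50151 to 50471 bp with 54.4 to 78.0% covered. As for the H3K4me3 limit, the 5 domains with the least shared sequence had 22 to 82 bp of H3K4me3 inside, while the closest domain outside it lay 12 bp from an H3K4me3 region.

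Domains of 10 to 50 kb that held H3K4me3 were denser in H3K27me3, and also longer, with a median of 19.1 kb against 15.7 kb. Their median covered share was 69.9% (interquartile range 60.6 to 78.9%), against 62.1%. The difference of medians was -7.72 percentage points (SD of the difference over 19 autosomes 2.63), and the domains without H3K4me3 had the lower median on 19 of 19 autosomes. It held within length: the medians without and with H3K4me3 were 58.2 and 66.1% at 10 to 15 kb, 62.3 and 67.4% at 15 to 20 kb, 64.8 and 71.4% at 20 to 30 kb, 67.9 and 73.75% at 30 to 40 kb, with 69.2 and 76.8% at 40 to 50 kb. The interquartile ranges of single domains overlapped in every class. The contrast in best score was wider. A top-score region was present in 765 of the 1579 domains with H3K4me3 (48.4%, 46.0 to 50.9%) and in 10.5% of those without, lower without H3K4me3 on 19 of 19 autosomes.

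**Figure D1:**
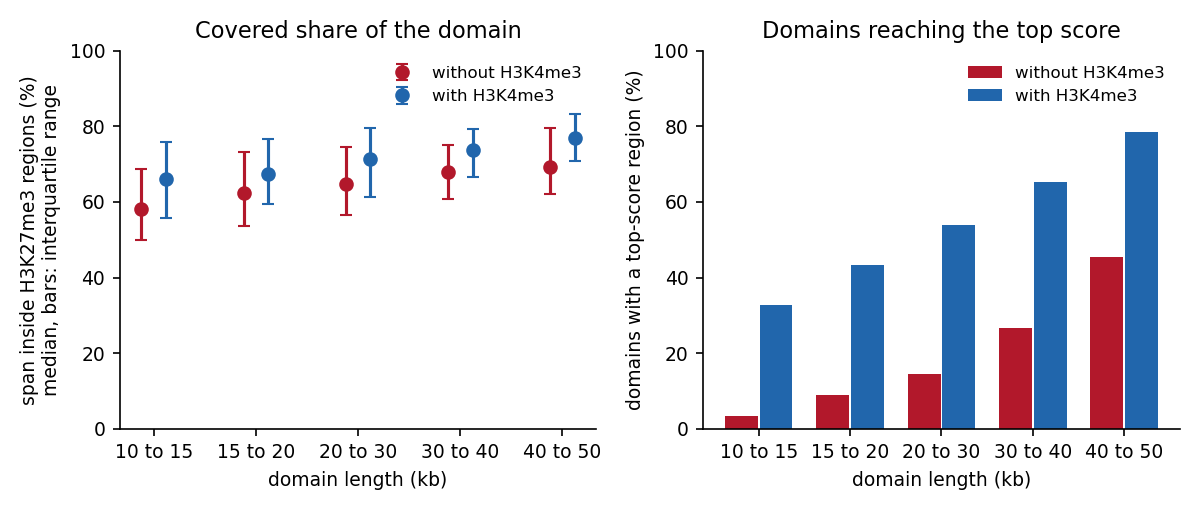
Left, share of the domain span inside H3K27me3 regions (percent, median with interquartile range) by domain length in kb, for domains without (red) and with (blue) H3K4me3. Right, percent of domains with at least 1 top-score H3K27me3 region; red bars run from 3.46 to 45.5% and blue bars from 32.7 to 78.6%, with blue above red in each of the 5 classes.

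The regions of domains with H3K4me3 were also described by whether they touched it, a split chosen after the difference had been seen. In domains with H3K4me3, 2420 of 13544 H3K27me3 regions (17.9%) touched an H3K4me3 region. Those 2420 were broad: their widths had a median of 2450 bp (quartiles 1282 and 4408 bp), their median score was 1138, and 31.9% were at the top score. The 11124 regions of the same domains that did not touch H3K4me3 had a median width of 1050 bp, against 1049 bp for the regions in domains without H3K4me3. Their median score was 164 against 158, and 2.54% against 1.601% were at the top. The highest-scoring region of a domain with H3K4me3 was one that touched H3K4me3 in 66.5% of cases, while touching regions were 17.9% of the number. The split takes wide, high-scoring regions out of domains with H3K4me3 and nothing out of the others, and a wide region has more room to touch H3K4me3. How much of the contrast lies at H3K4me3 regions was therefore not tested.

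Along the domain the mark was alike on both sides. Each domain was cut into 10 equal parts, counted from the border nearer to H3K4me3. The mean covered share was 75.7% in the first and 75.4% in the last part, and these are high because a domain starts and ends with a region by construction. Next to the end parts it was 54.9 and 54.8%, and in the 6 parts between these it ran from 58.5 to 61.9%. The side facing the nearer H3K4me3 was the denser one in 1236 domains and the other side in 1194 (50.9%, 95% Wilson interval 48.9 to 52.9%), on 11 of 19 autosomes. Means were 62.8% on the facing and 62.3% on the other side. Among the 261 domains with a border within 5 kb of H3K4me3 the facing side was denser in 54.0% (48.0 to 59.97%). It was denser in 46.9% (43.1 to 50.7%) at 5 to 20 kb, 51.7% (48.1 to 55.3%) at 20 to 50 kb, 55.9% (51.3 to 60.4%) at 50 to 100 kb and 47.5% (42.1 to 53.0%) beyond 100 kb. No order with distance was seen, and 4 of the 5 intervals include 50%. A dense side turned toward H3K4me3 was thus not seen in these lists.

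**Figure D2:**
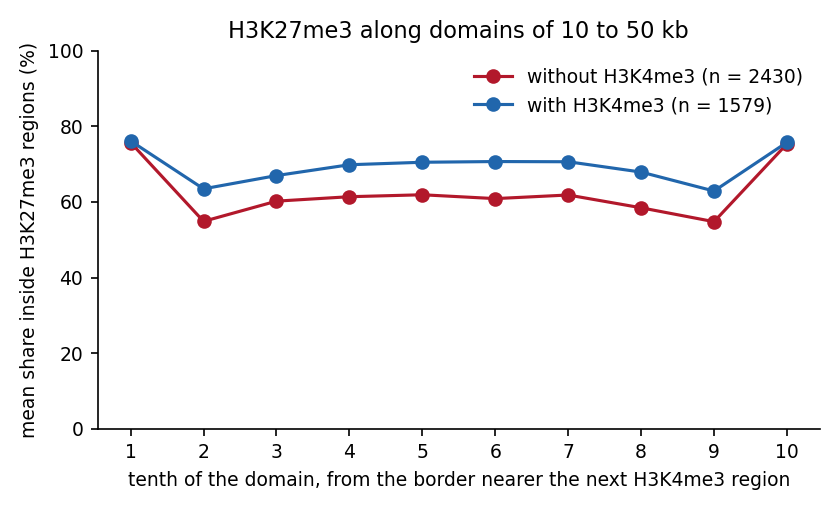
Mean share of base pairs inside H3K27me3 regions (percent) in each of 10 equal parts of the domain, from the border nearer the next H3K4me3 region outside, for 2430 domains without (red) and 1579 with (blue) H3K4me3. Both curves lie between 75.4 and 76.1% at the ends; between them the red curve stays between 54.8 and 61.9%, below the blue curve.

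End regions were a little weaker than inner ones. The 4860 regions at a border had a median width of 971 bp and a median score of 129, against 1076 bp and 169 for the 15381 inner regions. The highest-scoring region was an end region in 516 domains (21.2%), while end regions were on average 28.5% of a domain's regions. Regions inside the domain were thus somewhat wider and higher in score than those at its borders.

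The nearest H3K4me3 region usually lay well outside the domain. The nearer border had a median distance of 29.0 kb (interquartile range 11.6 to 61.8 kb, from 12 bp to 466 kb), and the farther border one of 95.3 kb (46.6 to 187 kb; 2428 domains, since 2 had H3K4me3 on 1 side only). The farther distance was a median of 2.82 times the nearer. A border lay within 1 kb of H3K4me3 in 63 domains (2.59%), within 5 kb in 261 (10.7%), within 10 kb in 540 (22.2%, 95% Wilson interval 20.6 to 23.9%) and within 50 kb in 1663 (68.4%). Both borders lay within 10 kb in 59 domains (2.43%). At the far end, 318 domains (13.1%) had no H3K4me3 within 100 kb of either border and 73 (3.00%) had none within 200 kb. Most thus had H3K4me3 within 50 kb, and few had it within 1 kb.

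**Figure D3:**
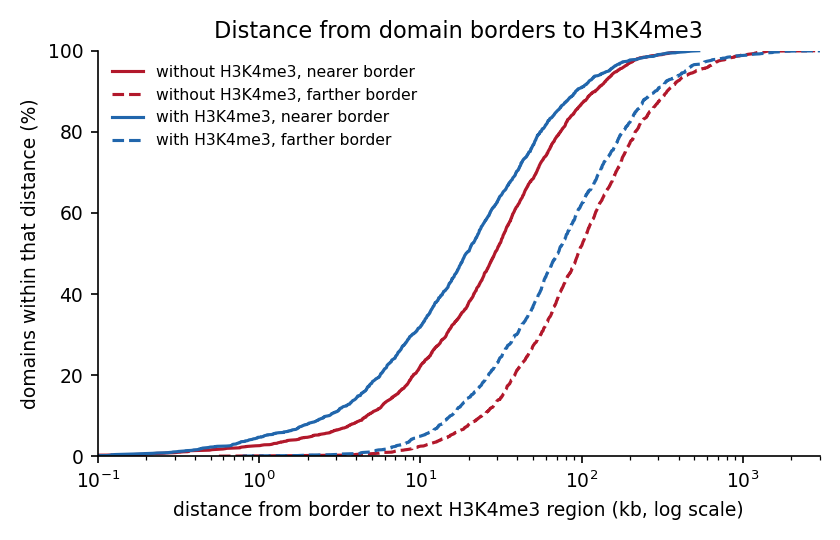
Cumulative percent of domains whose nearer (solid) or farther (dashed) border lies within a given distance of the next H3K4me3 region outside the domain (kb, log axis), without (red) and with (blue) H3K4me3. The red solid curve passes 22.2% at 10 kb and 68.4% at 50 kb, to the right of the blue solid curve, which passes 31.8% and 76.7%.

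Domains that held H3K4me3 had a further H3K4me3 region outside at a shorter distance, with a median of 19.2 kb (interquartile range 7.18 to 47.1 kb) and 31.8% within 10 kb (29.5 to 34.1%). The distance was longer without H3K4me3 on 16 of 19 autosomes. The difference of medians was 9.75 kb. Its SD over autosomes was 10.9 kb, which is a spread between chromosomes and not an error of the difference. The rule removes domains that reach an H3K4me3 region, and its part in the difference of medians was not tested. Domains of 5 to 10 kb without H3K4me3 had a median nearer distance of 29.6 kb, close to the 29.0 kb of the longer ones. Distance to H3K4me3 was also much the same over the length classes, at medians of 25.5 to 30.2 kb.

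The covered share was much the same at each distance from H3K4me3. The share with a top-score region was highest within 5 kb, where 36 domains had one. That share did not fall steadily with distance. The median covered share was 62.4% for the 261 domains within 5 kb of H3K4me3, 63.3% for 661 at 5 to 20 kb, 61.4% for 741 at 20 to 50 kb, 62.0% for 449 at 50 to 100 kb and 61.1% for 318 beyond. A top-score region was found in 13.8, 11.95, 9.58, 8.24 and 9.75% of them, and the median best score was 773, 702, 685, 672 and 705. The difference in covered share between the extremes is small beside the interquartile range within each class, for example 53.7 to 73.3% within 5 kb.

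The closest pairs show that nearness goes with no single form. The domain chr8:124969404-124988125 began 12 bp from an H3K4me3 region and had another 9.71 kb past its other border; it was 95.2% covered and at the top score. The domain chr6:94652068-94685283 lay 20 bp from H3K4me3 on its nearer side and 306 kb on the other, with 75.1% covered. Equally near, at 20 bp, chr11:106536823-106552637 was a sparse row of 7 regions over 36.2% of its span, with a best score of 104. The next were chr7:50685008-50698027 at 27 bp (51.0% covered, best score 178) and chr11:95480023-95493305 at 87 bp (66.7%, 1042).

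The most remote domain was chr15:86547189-86557484, with H3K4me3 at 466 kb on one side and 816 kb on the other. It was followed by chr9:46862187-46873167 (464 kb), chr12:108065775-108085476 (448 kb), chr5:133438367-133452434 (417 kb) and chr2:178753747-178769124 (407 kb). Their coverage, 47.4 to 61.7%, and their best scores, 237 to 674, lay below the medians of the class. These 5 are too few to stand for the 318 domains beyond 100 kb, whose medians are given above.

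The H3K4me3 region nearest to such a domain more often carried H3K27me3 of its own. The 2430 domains had 1769 different nearest H3K4me3 regions. Of these, 936 (52.9%, 95% Wilson interval 50.6 to 55.2%) overlapped H3K27me3 in another domain, against 33.7% (33.1 to 34.4%) of all 21098 autosomal H3K4me3 regions. For the nearest H3K4me3 outside domains of 10 to 50 kb that held H3K4me3 the share was 41.3% (38.8 to 43.8%). For domains of 5 to 10 kb without H3K4me3 it was 46.4% (44.4 to 48.3%). Within 10 kb of a border the share was lower, at 40.5% (36.4 to 44.7%), and beyond 50 kb it was 55.5% (51.3 to 59.6%). H3K27me3 within 3 kb of a border would have been joined to the domain, together with any H3K4me3 region it overlapped, so the lower value nearby follows in part from the rule. In width these H3K4me3 regions were ordinary, with a median of 1949 bp against 1996 bp for all.

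The domains came in clusters. Around them, at 3 to 10 kb from a border, 25.3% of base pairs lay inside H3K27me3 regions, followed by 28.4% from 10 to 20 kb, 27.5% from 20 to 50 kb and 24.4% from 50 to 100 kb. The autosomal mean was 6.01%. Around domains of 10 to 50 kb with H3K4me3 the values were lower in each zone, at 20.5, 22.6, 21.1 and 20.6%. The flanks on the side of the nearer H3K4me3 and on the other side were alike, for example 25.5 and 25.2% at 3 to 10 kb. The domains therefore lay in wide neighbourhoods rich in H3K27me3, on both sides.

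The next H3K27me3 domain of any length was a median of 4.15 kb away, just past the joining gap of 3 kb, and 91.9% had one within 10 kb. Another domain of 10 kb or more was within 50 kb of 1767 of the 2430 (72.7%, 95% Wilson interval 70.9 to 74.5%), at a median distance of 16.3 kb. Of the domains with H3K4me3, 63.7% (61.2 to 66.0%) had such a neighbour, at a median of 25.5 kb. The share was higher without H3K4me3 on 18 of 19 autosomes, by 9.07 percentage points over all (SD of the difference over 19 autosomes 6.69). Isolated domains existed as well, since 126 (5.19%) had no other domain of 10 kb or more within 500 kb.

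The neighbours were mixed in kind. The nearest domain of 10 kb or more was one of the same kind in 1410 cases (58.0%), one of 10 to 50 kb with H3K4me3 in 787 (32.4%) and one of 50 kb or more in 233 (9.59%). Among all 4423 autosomal domains of 10 kb or more the shares of these kinds were 54.9, 35.7 and 9.36%. The kinds of the single nearest neighbour were thus near their shares among all such domains. Within 50 kb, a domain of 10 to 50 kb without H3K4me3 lay near 54.2% (52.3 to 56.2%) of the 2430. For domains of 10 to 50 kb with H3K4me3 that share was 38.3% (35.9 to 40.7%). A domain of 10 kb or more holding H3K4me3 lay within 50 kb of 38.9% (37.0 to 40.9%) and 35.3% (33.0 to 37.7%), in the same order.

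Runs were counted as successive domains without H3K4me3 that lay within 50 kb of each other with no other domain of 10 kb or more in between. There were 1660 runs, of which 1182 were single domains (48.6% of the 2430). Runs of 2 or more held 1248 domains (51.4%), and the 29 runs of 5 or more held 175 (7.20%). The largest were of 9 domains. One ran over chr15:73816093-74293995 (478 kb), with domains of 11.4 to 48.5 kb that filled 54.6% of it, and held 2 H3K4me3 regions. Of its smaller H3K27me3 domains, 2 shared sequence with H3K4me3. The other ran over chr11:113970578-114317320 (347 kb), 66.3% of it inside its 9 domains, with 0 H3K4me3 regions. The next was a run of 8 on chr2:178240466-178553613 (313 kb), 72.9% in domains, also with 0.

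That chromosome 2 run lay in the H3K4me3-free interval with the most such domains, which is named here because its count was seen. From chr2:178150565 to 179175909, over 1025 kb, no H3K4me3 region was called. The interval held 18 of the 2430 domains, of 10.5 to 48.5 kb, and 41.9% of it lay inside H3K27me3 regions. The next fullest interval held 10. In all, the domains fell into 1589 intervals between successive H3K4me3 regions, and 474 intervals with more than 1 domain held 1315 of them. Such an interval had a median length of 150 kb, taken over domains, and 1 domain filled a median of 11.7% of it.

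Most of the domains did not adjoin a domain that held H3K4me3. The nearest H3K27me3 domain of any length with H3K4me3 was a median of 40.03 kb away (interquartile range 11.95 to 99.7 kb). It was within 5 kb of 340 domains (14.0%), within 10 kb of 546 (22.5%, 95% Wilson interval 20.9 to 24.2%) and within 50 kb of 1359 (55.9%). Domains that themselves held H3K4me3 had another one within 10 kb in 23.4% of cases (21.4 to 25.6%), at a median of 39.98 kb. The intervals of these shares overlap, and the share was higher without H3K4me3 on 6 of 19 autosomes.

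Seen at the borders, the next H3K27me3 domain held H3K4me3 at 731 of 4859 borders (15.04%). Of all 52317 autosomal H3K27me3 domains, 11.79% held H3K4me3. On neither side was there such a neighbour for 1766 domains (72.7%), on 1 side for 597 (24.6%) and on both for 67 (2.76%). Where it was within 10 kb, at 553 borders of 517 domains, the neighbour had a median length of 20.9 kb (interquartile range 9.08 to 41.4 kb) and was itself 10 kb or more in 71.6% of cases. Only 36 domains had such a neighbour within 10 kb on both sides. H3K4me3 came before any further H3K27me3 domain at 573 borders (11.8%), and for 1924 domains (79.2%) at neither border. At most borders the next H3K27me3 domain thus held no H3K4me3, which is also so for most autosomal H3K27me3 domains.

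The domains next to a holder of H3K4me3 were slightly denser and higher in score, and also longer. The 546 within 10 kb of one had a median covered share of 65.0% (interquartile range 55.1 to 74.6%) and a median best score of 854. The 813 at 10 to 50 kb had 61.4% and 666, and the 1071 beyond 50 kb had 61.1% and 661. A top-score region was present in 14.1, 8.86 and 9.80% of them. Their median lengths were 16.8, 15.4 and 15.3 kb. Coverage and best score rise with length in these domains, and the part of length in this difference was not tested. The quartile ranges overlapped widely.

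Whether a domain counted as separate depended on the joining gap. At a gap of 5 kb, 494 of the 2430 (20.3%, 95% Wilson interval 18.8 to 22.0%) became part of the same domain as one that had held H3K4me3 at 3 kb. At 10 kb this was 1192 (49.1%, 47.1 to 51.0%), at 20 kb 1772 (72.9%) and at 50 kb 2175 (89.5%). Domains that held H3K4me3 joined another such domain in 16.5, 42.9, 64.3 and 84.0% of cases, and domains of 5 to 10 kb without H3K4me3 in 13.6, 34.4, 58.8 and 81.9%. At 10 kb the joined domains had grown to a median of 127 kb (counting also those that took up H3K4me3 lying in a gap), and all autosomal domains together spanned 326 Mb instead of 205 Mb. Joining at wide gaps is therefore frequent for H3K27me3 domains of each kind.

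**Figure D4:**
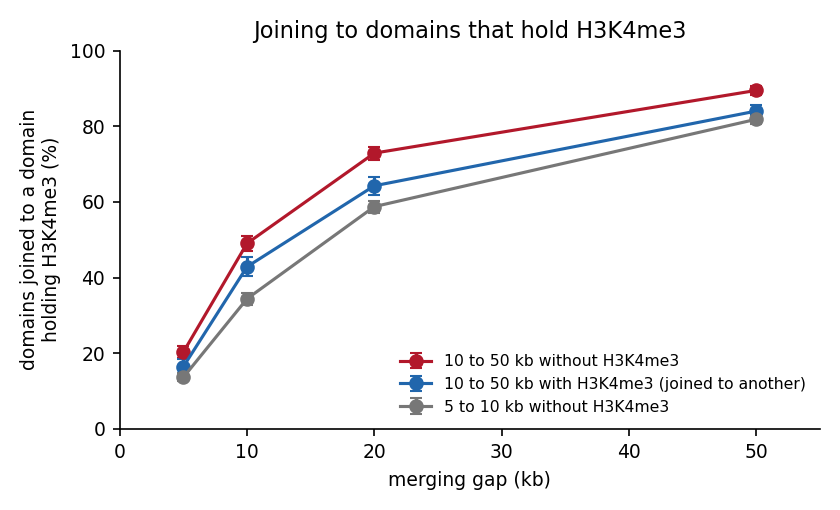
Percent of domains that became part of the same domain as another one holding H3K4me3 (y axis, with 95% Wilson intervals) as the joining gap was raised to 5, 10, 20 and 50 kb (x axis). Domains of 10 to 50 kb without H3K4me3 (red) go from 20.3 to 89.5% and lie above those with H3K4me3 (blue) and those of 5 to 10 kb without (grey) at each gap.

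The number of domains differed widely between chromosomes. The mean over the 19 autosomes was 0.982 ± 0.432 (SD) domains per Mb. Chromosome 3 had the lowest value, 0.313 (50 domains), and chromosome 11 the highest, 2.15 (262 domains). Chromosomes 17 and 9 followed with 1.36 each. The domains spanned 0.577% of chromosome 3 and 4.06% of chromosome 11. Domains of 10 to 50 kb with H3K4me3 were also most numerous on chromosome 11 (157, against 50 on chromosome 3 and 39 on chromosome 18, the fewest). H3K4me3 regions were densest on chromosome 11 too, at 13.1 per Mb. The share of domains without H3K4me3 among those of 10 to 50 kb was 59.8 ± 4.85%, from 50% on chromosome 3 to 70.1% on chromosome 12. In contrast, the median covered share per chromosome stayed between 58.6 and 64.4% (61.6 ± 1.68%), and the median nearer distance to H3K4me3 between 21.9 kb on chromosome 8 and 37.0 kb on chromosome 9. Scores varied more. The share of domains with a top-score region went from 4.88% on chromosome 14 to 18.9% on chromosome 12, and the median best score from 534 on chromosome 16 to 961 on chromosome 6.

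**Figure D5:**
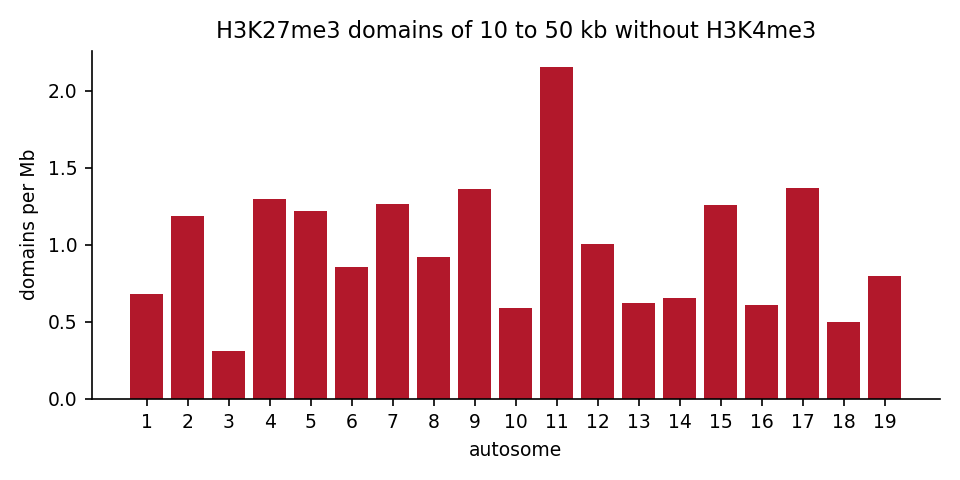
Number of H3K27me3 domains of 10 to 50 kb without H3K4me3 per Mb (y axis, from 0) on each of the 19 autosomes (x axis). Chromosome 11 stands highest at 2.15 per Mb and chromosome 3 lowest at 0.313.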

How the data were processed

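The authors deposited 21998 H3K4me3 and 117512 H3K27me3 regions, each with its position and a score of no stated scale. The submitters' processing notes name Bowtie 1.1.2 and mm9, and the region names have the MACS form per the deposited files. The sources used here do not give the caller's version, its threshold, read filters or the use of the input. Depth is unknown, so the absence of H3K4me3 at a domain cannot be set against a detection limit.

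Regions were joined and measured with Python 3.11.15, NumPy 2.4.6, pandas 2.3.3 and SciPy 1.17.1, and plotted with matplotlib 3.10.9. Distances count the base pairs between borders, and positions count from 1. The list of domains and the nearer distances were checked against bedtools 2.31.1, with 0 differences, and tested on simulated data with 1000 planted domains, of which 0 were wrong. The domains and the lists were chosen with earlier results of these data known. No resampling test was run. Domains are named by rank: the 5 longest, most and least covered, nearest to and farthest from H3K4me3, those with the widest region, those at the limits, and the 3 largest runs. Sequences and genes were not used here, since the reference tables are of GRCm38.p6, another build. The alternatives tried were joining gaps of 1000 and 5000 bp, H3K27me3 regions at or above the median score, top-score H3K4me3 only, 200 bp of shared sequence, H3K4me3 touching a region instead of the span, and leaving out chromosome 11. At the top score were 11174 of the 21098 autosomal H3K4me3 regions (53.0%).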

Additional observations from a re-analysis of the deposited data

How the results depend on the processing

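The 2430 domains became 1392 with a joining gap of 1000 bp, and 1643 to 3424 under the other alternatives. Their median covered share of 62.1% was 87.9% with a gap of 1000 bp, 45.2% with 5000 bp, 72.0% with H3K27me3 regions at or above the median score, and 64.5% with top-score H3K4me3 only. In the same order the median region width was 1497, 930, 1549 and 1075 bp, and the share with another domain of 10 kb or more within 50 kb was 70.5, 69.97, 67.7 and 70.1%. A wider gap takes in more empty sequence by construction; the cause of the other changes was not tested. The nearer border to H3K4me3 had a median of 26.4 kb with a gap of 1000 bp, 30.9 kb with 5000 bp and 50.3 kb with top-score H3K4me3 only, where 14.5% lay within 10 kb. The share within 10 kb of a domain holding H3K4me3 was 27.8%, 18.0% and 8.94% in these 3 settings. The other 29 of 49 values stayed within their interval or, for the number of domains, within 1.5 times. The lower covered share without H3K4me3 kept its direction under all 7 alternatives, from -3.17 to -10.4 percentage points, as did the lower share with a top-score region, from -24.5 to -42.5. The near-equal region widths were less stable. Regions of these domains minus regions not touching H3K4me3 in domains with it differed by -1 bp in median width. This became 101.5 bp with a gap of 1000 bp (SD over autosomes 139 bp). It was 44.5 bp with H3K27me3 regions at or above the median score, and -24 to 9 bp under the other alternatives. No paired analysis was possible because there is 1 library for each mark. Depth is unknown, so how many H3K4me3 regions were missed in these domains is not known.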

Other observations

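Outside the autosomes, 14 of the 23 domains of 10 to 50 kb on X held no H3K4me3. On Y and the unplaced sequences it was 3 of 18.

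Domains of 50 kb or more without H3K4me3, 120 on the autosomes, continued the order seen within 10 to 50 kb. Their median covered share was 73.0% and 60.8% (95% Wilson interval 51.9 to 69.1%) had a top-score region, while of the 3546 domains of 5 to 10 kb without H3K4me3 the median covered share was 55.9% and 0.902% reached the top score. The median nearer distance to H3K4me3 was 32.7 kb for the former and 29.6 kb for the latter.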
